A study of Homo sapiens with 6 samples.

Results

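The transcripts of NPTX2 and 3 of its relatives in the pentraxin family, NPTX1, NPTXR and PTX3, were examined in M14 cells, a human melanoma line, with and without knockdown of the cohesin subunit STAG2. The 4 genes were taken by symbol from a table of 57820 genes. NPTX2 was picked because of the size of its difference between the conditions, so its levels and fold change are a description with no test, whereas the 3 others were added by family membership. All cells carried a doxycycline-inducible shRNA against STAG2. Cells grown without doxycycline are called WT, although they hold the same construct, and cells grown with doxycycline for 5 days are called KD. Each condition had 3 RNA-seq libraries, named here WT1 to WT3 and KD1 to KD3 after their replicate numbers. Doxycycline exposure and loss of STAG2 cannot be told apart in these 6 libraries, since none came from doxycycline-treated cells without the STAG2 shRNA.

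Pentraxins are secreted or membrane-bound proteins that assemble into multimers through a shared C-terminal pentraxin domain. The neuronal pentraxins NPTX1 and NPTX2 are released by neurons, where they gather AMPA-type glutamate receptors at excitatory synapses, and NPTX2, also called Narp, was first known as an immediate early gene of neuronal activity. NPTXR is a membrane-anchored relative that joins them in mixed complexes and can be shed by the protease ADAM17. PTX3 is a long pentraxin of innate immunity that myeloid and stromal cells make in response to IL-1, TNF and microbial products. The short pentraxins CRP and APCS are plasma proteins made in the liver.

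NPTX2 went from a few reads per library in WT to one of the more abundant transcripts in KD, while NPTX1 and NPTXR stayed at low, detectable levels in both conditions and PTX3 was near 0 throughout. The 250 bases before the annotated start of NPTX2 are shown because this is the promoter of the gene that differed so widely, and those of PTX3 because they belong to the member that was almost silent. The sequences are from RefSeq on GRCh38.p14, whose table holds 2 of the 4 members, and lie at chr7:98617035-98617284 and chr3:157436600-157436849, both on the plus strand. Capitals in NPTX2 mark the CCAAT box (CCAAT), the half-site of the cyclic AMP response element (TGACG) and the GC boxes (GGGCGG, here on the opposite strand, with 1 pair that shares a base), and capitals in PTX3 mark matches to the NF-kB consensus.
NPTX2: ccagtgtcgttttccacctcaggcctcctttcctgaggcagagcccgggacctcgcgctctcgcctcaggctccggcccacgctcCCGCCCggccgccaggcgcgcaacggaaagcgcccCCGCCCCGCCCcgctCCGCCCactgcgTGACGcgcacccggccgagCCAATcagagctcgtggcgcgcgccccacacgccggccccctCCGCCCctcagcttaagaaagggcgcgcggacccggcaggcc
PTX3: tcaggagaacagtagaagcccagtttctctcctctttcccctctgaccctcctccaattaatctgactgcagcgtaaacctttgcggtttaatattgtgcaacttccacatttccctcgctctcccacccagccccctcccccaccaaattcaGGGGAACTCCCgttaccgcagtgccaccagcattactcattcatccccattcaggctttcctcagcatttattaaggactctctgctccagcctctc

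The NPTX2 promoter was rich in CpG, with 34 CpG dinucleotides in 250 bases against a median of 11 over 35116 RefSeq promoters, and 93.2% of these promoters held fewer. Its GC content was 75.6%, against a median of 58%. PTX3 had 5 CpG and a GC content of 51.6%. On either strand, the NPTX2 window held 5 GC boxes, a motif found in 42.6% of all promoters. It also held 1 CCAAT box, found in 32.0% of promoters, and 1 TGACG half-site, found in 21.2%. The full element TGACGTCA, present in 1.65% of promoters, had 0 matches in both windows. The same was true of the AP-1 site TGANTCA (6.57% of promoters), the interferon regulatory factor core GAAANNGAA (6.88%), the TATA box TATAAA (10.7%) and the E-box CACGTG (6.34%). PTX3 held 1 CCAAT box and 2 overlapping matches to the NF-kB consensus, a motif with a match in 9.96% of promoters. These matches describe letters and were not tied to binding of any factor in these cells.

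Depth and the state of the libraries are given here for reading the low values. Mitochondrial genes took 5.07% of the counts in WT1 and between 2.12% and 2.94% in the other libraries. Genes above 0 numbered 20646 in WT1 and between 16028 and 17995 in the others. Whether this bears on the low counts of single genes in WT1 was not tested. Each library held between 24895998 and 35181733 expected counts in all, and 3 counts, taken as the floor for a gene not detected, came to between 0.0870 and 0.112 CPM (counts per 1000000 counts of the library, scaled by edgeR's TMM method). STAG2, the targeted gene, was at 66.5, 34.8 and 28.8 CPM in WT1 to WT3 and at 16.0, 7.31 and 6.69 CPM in KD1 to KD3, and its fitted log2 difference was −2.12 (edgeR adjusted p = 0.0342), with no overlap between the conditions. All 11 melanoma and melanocyte markers passed the filter on low counts, and their summed level ran from 2118 to 6662 CPM in WT and from 1445 to 2810 CPM in KD. PMEL, a melanosome protein and the most abundant of them, was at 3370, 662 and 684 CPM in WT1 to WT3 and at 1254, 358 and 364 CPM in KD1 to KD3. The replicate 1 libraries stood apart in both conditions, also with DCT, a melanin synthesis enzyme, at 1432 CPM in WT1 against 228 CPM in WT2 and in WT3, and at 421 CPM in KD1 against 106 and 109 CPM in KD2 and KD3. Of the 11 melanoma markers 0 rose and 1 fell in KD, where edgeR called 2.59% of all tested genes. With the replicate number as a block 1 rose and 7 fell, where that fit called 9.52% of all tested genes. Leukocyte markers other than CD68 were scarce, with CD3E at 0 and PTPRC at no more than 16 counts in any library, and the summed level of the list, CD68 included, ran from 27.8 to 43.0 CPM in WT and from 93.1 to 128 CPM in KD. Fibroblast markers summed to between 8.22 and 103 CPM in WT and between 5.84 and 29.3 CPM in KD. Endothelial markers summed to no more than 6.18 CPM in any library. Of the 5 and 2 tested genes of these lists edgeR called none, where it called 2.59% of all tested genes. None had an unadjusted p under 0.05, and 0 were called by DESeq2 or limma-voom. With the replicate block 1 fibroblast marker fell, COL1A1, with a log2 fold change of −1.67 (edgeR adjusted p = 0.00232), and no endothelial marker was called. In bulk RNA, more cells that use a gene and more RNA per cell cannot be told apart.

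NPTX2 (ENSG00000106236) occupies positions 98246597 to 98259181 of chromosome 7 (GRCh37, plus strand), and its canonical transcript has 2713 bases in 5 exons. The expected counts were 9, 7 and 3 in WT1 to WT3 and 2198, 10925 and 13674 in KD1 to KD3. The same values in CPM were 0.335, 0.203 and 0.109 in WT and 68.4, 369.6 and 418 in KD. The conditions did not overlap, since even KD1, the lowest KD library, was 204 times WT1, the highest WT library, and WT3 was at the floor. In each of the 6 libraries the NPTX2 count was whole within 0.005, so RSEM, which divides reads that match several genes, left no fraction here.

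The mean level of NPTX2 was 0.216 ± 0.114 CPM in the WT libraries and 285 ± 189.6 CPM in the KD libraries (SD, n = 3 each), a ratio of means of 1323. The log2 fold change fitted by edgeR was 10.35 (standard error 0.84, worked out from the fit's F statistic), the rank 4 among 15605 tested genes. These numbers carry no test, because NPTX2 was chosen on them. Scaled to transcript length, NPTX2 went from 0.0796 ± 0.0419 to 105 ± 69.9 CPM per kb (SD, n = 3). Among 22571 genes with a count and a transcript length, 23.8% had a lower mean level per length than NPTX2 in WT and 96.1% in KD.

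**Figure D1:**
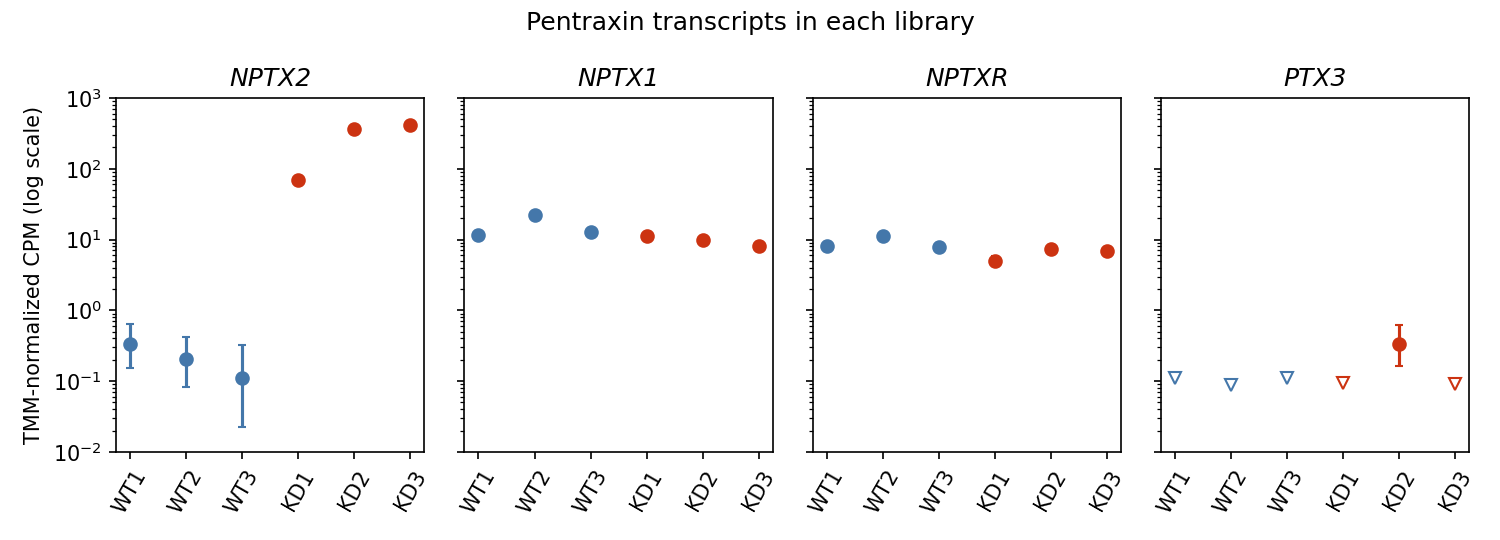
TMM-normalized CPM of NPTX2, NPTX1, NPTXR and PTX3 on a log scale in each of the 6 libraries (blue, WT; red, KD). Points carry exact 95% Poisson intervals that cover counting error only, and open triangles mark libraries with 0 counts, drawn at the level of 3 counts. NPTX2 lies between 0.109 and 0.335 CPM in WT and between 68.4 and 418 CPM in KD, while NPTX1 and NPTXR keep a narrow range.

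The level of NPTX2 varied among the KD libraries. KD1 had 68.4 CPM, with an exact 95% Poisson interval of 65.6 to 71.3 CPM, whereas KD2 and KD3 had 369.6 CPM (362.7 to 376.6) and 418 CPM (411 to 426). The highest KD library was 6.12 times the lowest. KD1 was also the KD library with the most STAG2, at 16.0 CPM, and the one with the highest DCT, at 421 CPM. WT1 likewise had the most STAG2 of the WT libraries, at 66.5 CPM, and the highest DCT, at 1432 CPM. Whether the level of STAG2 or DCT bears on the lower NPTX2 level in KD1 was not tested. The WT values had intervals of 0.153 to 0.637, 0.0816 to 0.418 and 0.0225 to 0.319 CPM, which overlap one another, so no difference between the WT libraries was detectable at this depth.

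Same-numbered libraries resembled each other across genes, most clearly in replicate 1, so the ratio of KD to WT was also taken within each number. For NPTX2 the ratio was 204 in replicate 1, with an exact 95% interval of 107 to 447 from the counts. It was 1820.5 (883 to 4529) in replicate 2. In replicate 3 it was 3831 (1311 to 18581), where the WT library held only 3 counts. Replicate 1 had the lowest of the 3 ratios. The intervals cover counting error only and leave out the spread between samples. A fit with the replicate number as a block gave a log2 fold change of 10.24 (standard error 0.50).

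**Figure D2:**
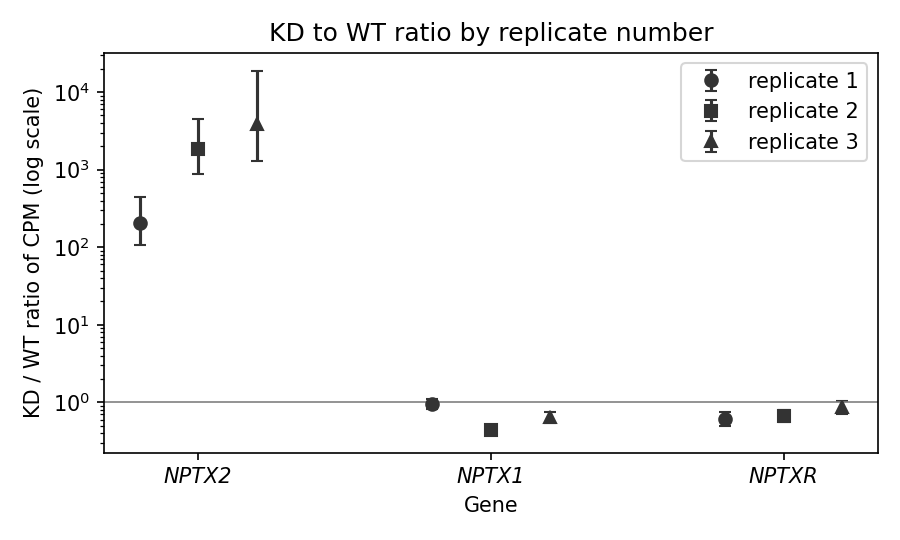
Ratio of KD to WT CPM on a log scale for NPTX2, NPTX1 and NPTXR within each replicate number, with exact 95% intervals from the counts. The grey line marks a ratio of 1. NPTX2 ratios are 204, 1820.5 and 3831, and those of NPTX1 and NPTXR lie between 0.444 and 0.961.

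NPTX1 (ENSG00000171246), like NPTX2 a secreted neuronal pentraxin, occupies positions 78440634 to 78451643 of chromosome 17 (GRCh37, minus strand). NPTX1 had 11.6, 22.3 and 12.7 CPM in WT1 to WT3 and 11.2, 9.91 and 8.11 CPM in KD1 to KD3. None of the KD libraries reached the lowest WT library, but KD1 and WT1 differed by less than their counting error. On average WT held 15.5 ± 5.89 CPM of NPTX1 and KD 9.73 ± 1.54 CPM (SD, n = 3 each). The log2 fold change of −0.68 (standard error 0.33) did not pass edgeR's quasi-likelihood test, whose p-values were adjusted by Benjamini and Hochberg's method over all tested genes (edgeR adjusted p = 0.402). With the replicate block it was −0.63 (edgeR adjusted p = 0.221). Without WT2, the highest library, the log2 fold change was −0.32. The ratio of KD to WT was 0.961 (exact 95% interval 0.823 to 1.12) in replicate 1, 0.444 (0.387 to 0.509) in replicate 2 and 0.640 (0.543 to 0.753) in replicate 3.

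NPTXR (ENSG00000221890), the transmembrane member, occupies positions 39214457 to 39240033 of chromosome 22 (GRCh37, minus strand). NPTXR had 8.03, 11.1 and 7.86 CPM in WT1 to WT3 and 4.95, 7.45 and 6.85 CPM in KD1 to KD3. Again the conditions did not overlap, although KD2 and WT3 were close, at 7.45 and 7.86 CPM. On average WT held 9.00 ± 1.83 CPM of NPTXR and KD 6.42 ± 1.31 CPM (SD, n = 3 each). The fitted log2 difference of −0.49 (standard error 0.35) did not pass the test (edgeR adjusted p = 0.615), also with the replicate block (edgeR adjusted p = 0.414). Its ratio of KD to WT ran from 0.616 in replicate 1 to 0.872 in replicate 3. The expected count of NPTXR was whole in 4 of the 6 libraries.

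The exact permutation test over the 6 libraries gave a two-sided p = 0.1 for NPTX1 and for NPTXR, the smallest that 3 libraries against 3 allow. For both genes every KD value was below every WT value, a pattern seen in 10.5% of the 15605 tested genes, and in 22.3% when either direction counts. Neither NPTX1 nor NPTXR had an adjusted p under 0.05, where the share over all tested genes was 2.59% (404 genes), or 9.52% (1486 genes) with the replicate block. A miss of the threshold does not show that NPTX1 and NPTXR were equal in the conditions.

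PTX3 (ENSG00000163661) occupies positions 157154639 to 157161422 of chromosome 3 (GRCh37, plus strand), inside the gene body of VEPH1, which runs on the opposite strand. It had 10 counts in KD2 and 0 in the other 5 libraries. In CPM this was 0.338 in KD2 (exact 95% Poisson interval 0.162 to 0.622). In each of the others the upper limit of this interval at 0 counts was between 0.107 and 0.137 CPM. PTX3 did not pass the filter on low counts and was not tested, and the conditions overlapped. VEPH1 had 164, 29 and 20 counts in WT1 to WT3 and 118, 33 and 120 in KD1 to KD3, so KD2, the one library with PTX3 reads, was not the one with the most VEPH1. The strand setting of the counting is not given in the sources used here, so reads of the overlapping genes may not be told apart.

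Compared per kilobase of canonical transcript, the order of the members changed between the conditions. In all 3 WT libraries NPTX1 was highest, then NPTXR, then NPTX2, with PTX3 at 0. In all 3 KD libraries NPTX2 was highest, followed by NPTX1, NPTXR and PTX3. NPTX1 and NPTXR kept their order, with means of 2.86 ± 1.08 and 1.54 ± 0.31 CPM per kb in WT and of 1.79 ± 0.28 and 1.10 ± 0.22 CPM per kb in KD (SD, n = 3), and their libraries did not overlap within a condition. NPTX2 in WT3 and PTX3 in WT could not be ordered, because both were at or under the floor of 3 counts.

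As a share of the summed level per kilobase of the 4 genes, NPTX2 took 3.40%, 1.23% and 1.08% in WT1 to WT3 and 89.7%, 97.6% and 98.3% in KD1 to KD3. NPTX1 held between 58.8% and 67.4% in WT and between 0.950% and 7.31% in KD. NPTXR went from between 31.3% and 37.8% to between 0.749% and 3.02%. The pentraxin transcripts of WT cells were thus mostly NPTX1 and those of KD cells mostly NPTX2, which follows from the NPTX2 values that chose the gene.

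**Figure D3:**
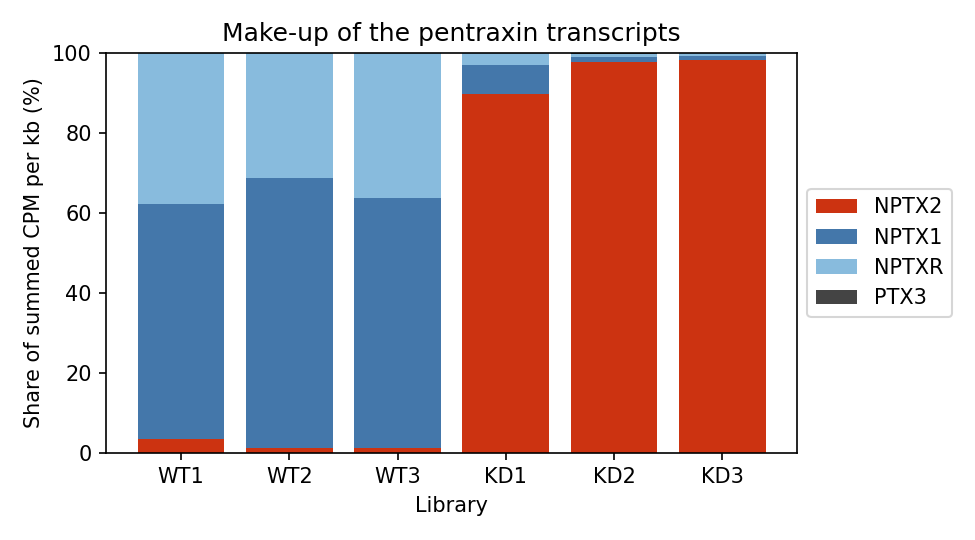
Share in percent of each member in the summed CPM per kb of NPTX2, NPTX1, NPTXR and PTX3, as stacked bars for the 6 libraries. NPTX2 takes from 1.08% to 3.40% in the WT libraries and from 89.7% to 98.3% in the KD libraries.

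The other genes with a pentraxin domain gave little signal. CRP and APCS were at 0 in all 6 libraries. PTX4 had 8 counts in WT1 (0.298 CPM) and none elsewhere. SVEP1, a large extracellular matrix protein with a pentraxin domain among many others, was at 0.716 CPM in KD1 and 1.12 CPM in KD2, at 0.186 CPM in WT1 and at 0 in WT2, WT3 and KD3. None of the 4 passed the filter, so within the family the high level of NPTX2 in KD had no counterpart among the genes listed here.

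The genes around NPTX2 were then compared, as the study concerns the folding of chromosomes. The nearest tested gene on the lower side, BAIAP2L1, an actin regulator, lies 216.2 kb from it and had a log2 difference of 0.03 (edgeR adjusted p = 0.980). The nearest on the higher side, TRRAP, a scaffold of histone acetyltransferase complexes, lies 216.4 kb away and had −0.03 (edgeR adjusted p = 0.979). Within 1000 kb on each side, a window chosen after the values of the neighbours were seen, 24 genes were tested. Their median log2 fold change was −0.02, against −0.03 over all tested genes, and they ran from −0.67 to 1.04. None had an adjusted p under 0.05 from edgeR in either direction, where it called 2.59% of all tested genes. For 1 the unadjusted p was under 0.05, and DESeq2 called 1 and limma-voom 0. With the replicate block 2 of the 24 passed, where that fit called 9.52% of all tested genes, so the count is near the background and is no result about the surroundings. SMURF1, a ubiquitin ligase, had a log2 fold change of 0.79 in the main fit (edgeR adjusted p = 0.0836) and 0.78 with the block (edgeR adjusted p = 0.0124). ASNS, the asparagine synthetase, had 1.04 in the main fit (edgeR adjusted p = 0.342) and 1.37 with the block (edgeR adjusted p = 0.0306). It was at 245, 59.7 and 69.5 CPM in WT1 to WT3 and at 257, 272 and 241 CPM in KD1 to KD3. Its conditions overlapped, since WT1 was as high as the KD libraries.

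TMEM130, a transmembrane protein gene between NPTX2 and TRRAP, was singled out after its values were seen. It starts 221.8 kb from the NPTX2 start, on the opposite strand, and did not pass the filter on low counts. It had 0.0831, 0 and 0.0371 CPM in WT1 to WT3 and 0, 2.49 and 3.89 CPM in KD1 to KD3. Reads were thus seen in the same 2 KD libraries in which NPTX2 was highest, with 73.72 and 127.22 expected counts, while KD1, the lowest for NPTX2, had 0, and the conditions overlapped. In a fit without the filter its log2 difference was 5.73 (standard error 1.72, edgeR adjusted p = 0.0247). That fit called 1103 of 24277 genes. Because TMEM130 was picked on these same values, its p-value is a description only.

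**Figure D4:**
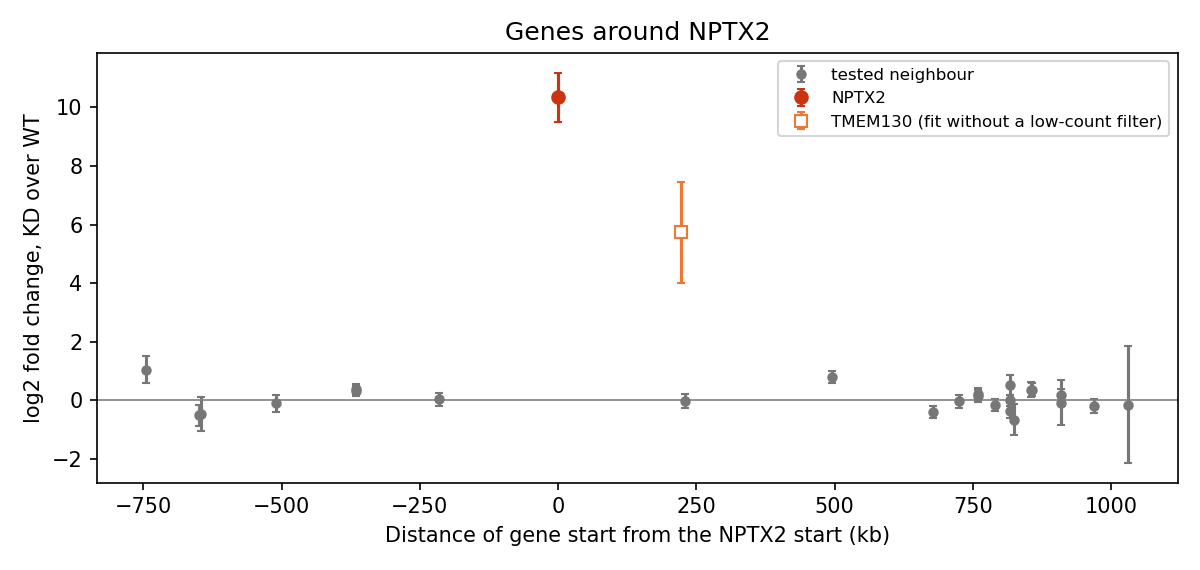
Log2 fold change of KD over WT against the distance of each gene start from the NPTX2 start in kb, with standard errors as bars. Grey points are the 24 tested neighbours, between −0.67 and 1.04, the red point is NPTX2 at 10.35, and the open orange square is TMEM130, at 5.73 in a fit without a low-count filter.

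To find genes whose levels followed that of NPTX2, log2 CPM was correlated over the 6 libraries for 13534 tested genes with a mean of at least 1 CPM. The 5 most alike were N4BP1, GMPR, MIEF1, SLC5A2 and TREM1, with Pearson's r from 0.994 to 0.998, and 57 genes had an r over 0.98. Such values come readily from 3 low and 3 high libraries and are a description only. N4BP1, a regulator of RNA and cytokine responses, was at 24.4, 23.7 and 23.0 CPM in WT1 to WT3 and at 70.5, 88.3 and 90.6 CPM in KD1 to KD3, with KD1 again lowest. GMPR, a purine enzyme, went from between 116 and 120.3 CPM to 236, 270.1 and 268 CPM. TREM1, a myeloid receptor gene, and SLC5A2, a kidney glucose transporter gene, were at 0 in every WT library, with up to 4.22 and 3.12 CPM in KD.

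The binding partners of the neuronal pentraxins came from a list of 18 AMPA receptor subunits and auxiliary proteins. The receptors themselves were near or at 0. GRIA2 was at 0 in all libraries and GRIA1, GRIA3 and GRIA4 had at most 2, 22 and 5 counts in any library. Of the 8 listed genes that passed the filter, 1 rose and 0 fell, where edgeR called 2.59% of all tested genes, and the median log2 fold change was 0.03, against −0.03 over all tested genes. The gene that rose was DLG4, which encodes the postsynaptic scaffold PSD-95.

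DLG4 was at 21.2, 22.9 and 20.4 CPM in WT1 to WT3 and at 46.2, 62.8 and 54.5 CPM in KD1 to KD3. Its KD libraries were all above its WT libraries, and the log2 fold change was 1.34 (standard error 0.21, edgeR adjusted p = 0.0100). PICK1, which binds AMPA receptors in the cell, had a log2 fold change of 0.52 (adjusted p = 0.318), CNIH3 had −0.45 (adjusted p = 0.838), SHISA9 −0.61 (adjusted p = 0.784) and CACNG8 −2.04 (adjusted p = 0.577), all from edgeR. GRIP2, a receptor-anchoring protein picked out after its values were seen, was at 0 in WT and at 2.09, 0.744 and 1.99 CPM in KD1 to KD3 (edgeR adjusted p = 0.0659).

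Synapse organizers and activity-regulated genes, 24 in the list, gave 14 tested genes. Of these 0 rose and 0 fell by edgeR, where it called 2.59% of all tested genes. A count of 0 is near that share and is no result about the list. The median log2 fold change was 0.40, against −0.03 over all tested genes. At an unadjusted p under 0.05 there were 2, and DESeq2 called 1 and limma-voom 0. ADAM17, the protease that sheds NPTXR, had a log2 fold change of 0.62 (edgeR adjusted p = 0.327). NLGN2, a synaptic adhesion protein, had 0.18 (edgeR adjusted p = 0.832), and NRN1, the neuritin gene induced by activity, 0.27 (edgeR adjusted p = 0.655). ARC, an immediate early gene of neurons as NPTX2 is, ran from 0.596 to 2.23 CPM in WT and from 1.99 to 7.07 CPM in KD, and the conditions overlapped. C1QL1, a secreted synapse organizer, averaged 13.7 ± 2.31 CPM without and 4.40 ± 1.68 CPM with knockdown (SD, n = 3). Its edgeR adjusted p was 0.0658, and 0.00722 with the replicate block.

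Because NPTX2 is best known from neurons, neuronal markers were read beside it. Of 12 markers 8 passed the filter, and 3 of them rose in KD while 0 fell, where edgeR called 2.59% of all tested genes. The median log2 fold change of the 8 was 0.23, against −0.03 over all tested genes. SLC17A7, a vesicular glutamate transporter, was at 2.91, 2.44 and 1.67 CPM in WT1 to WT3 and at 8.71, 17.9 and 14.7 CPM in KD1 to KD3 (log2 fold change 2.55, standard error 0.41, edgeR adjusted p = 0.0127). SYP, the synaptic vesicle protein synaptophysin, had a log2 fold change of 1.35 (edgeR adjusted p = 0.0230), and NEFL, a neurofilament subunit, of 2.85 (edgeR adjusted p = 0.0393). The libraries of all 3 genes did not overlap between the conditions, as in 22.3% of all tested genes. This adds little, since the 3 were already called on the same libraries. The other 5 tested markers did not pass the test. TUBB3, a neuronal tubulin and the most abundant of the list, was at 135, 228 and 225 CPM in WT1 to WT3 and at 122, 192 and 171 CPM in KD1 to KD3, with overlap (log2 difference −0.28, edgeR adjusted p = 0.729). MAP2, a microtubule protein of dendrites, had −0.59 (edgeR adjusted p = 0.748), and RBFOX3, a neuronal splicing factor, −0.26 (edgeR adjusted p = 0.962). SYT1, a calcium sensor of synaptic vesicles, had 0.43 (edgeR adjusted p = 0.942), and GAD1, a GABA-synthesizing enzyme, 0.04 (edgeR adjusted p = 0.988). The defining markers STMN2 and ELAVL4 were at 0 in all 6 libraries, and the summed level of the list ran from 178 to 256 CPM in WT and from 179 to 257 CPM in KD, most of it TUBB3. The part of any other cell type in the NPTX2 level was not tested.

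Among 22 genes for proteins that bind PTX3, 12 were at 0 in every library, including the complement genes C1QA, C1QB and C1QC, and 6 passed the filter. None of the 6 passed edgeR's test in either direction, which is near the 2.59% called of all tested genes. For 1 the unadjusted p was under 0.05, and DESeq2 and limma-voom called 0. The median log2 fold change was −0.56, against −0.03 over all tested genes. THBS1, an extracellular matrix glycoprotein, was at 26.3, 178.5 and 188 CPM in WT1 to WT3 and at 25.7, 77.6 and 77.0 CPM in KD1 to KD3, so that the replicate 1 libraries were low in both conditions. Its adjusted p was 0.475 from edgeR, and 0.0467 with the replicate block. FGF2, a growth factor that PTX3 sequesters, had a log2 fold change of −0.01 (edgeR adjusted p = 0.997). FCGR2A, an Fc receptor, had −1.10 (edgeR adjusted p = 0.320), and HAS2, a hyaluronan synthase, −1.26 (edgeR adjusted p = 0.721).

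The 13 cytokines, receptors and signalling proteins known to raise PTX3 were mostly expressed. Of the 11 tested, 0 rose and 0 fell by edgeR, where it called 2.59% of all tested genes. An unadjusted p under 0.05 was seen for 5, and DESeq2 called 2 and limma-voom 1. With the replicate block 3 rose, where that fit called 9.52% of all tested genes. The median log2 fold change was 0.78, against −0.03 over all tested genes. The 4 most abundant were TNFRSF1A, a TNF receptor, RELA, a subunit of NF-kB, MYD88, the adaptor of IL-1 and Toll-like receptors, and NFKB1, another NF-kB subunit. Their log2 differences were 0.23, 0.31, 0.95 and 0.22 (edgeR adjusted p = 0.797, 0.650, 0.163 and 0.697). IL1B, the interleukin 1 beta gene, was at 2.38, 3.28 and 6.26 CPM in WT1 to WT3 and at 13.4, 11.4 and 14.4 CPM in KD1 to KD3, with no overlap. Its adjusted p was 0.0678 from edgeR and 0.00936 with the block. The others that passed with the block were TNFRSF1B, the other TNF receptor (edgeR adjusted p = 0.0253), and MYD88 (edgeR adjusted p = 0.0133). PTX3 itself remained at 0 in KD1 and KD3. IL1B, TNFRSF1B and ARC were named after their values were seen.

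**Figure D5:**
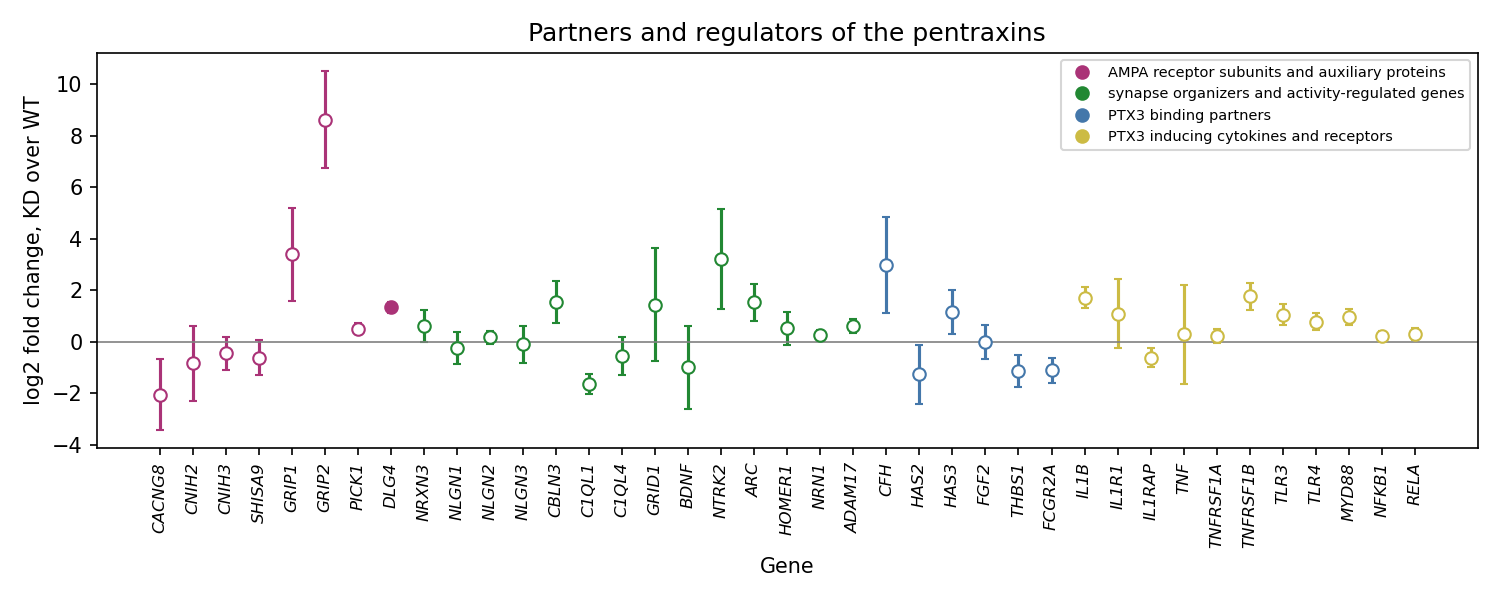
Log2 fold change of KD over WT, with standard errors as bars, for the tested genes of the 4 partner and regulator lists, coloured by list. Filled points have an adjusted p under 0.05 from edgeR, which DLG4 alone has, at 1.34, and GRIP2, at 0 in WT, has the highest value with a wide bar.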

How the data were processed

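RNA from 3 WT and 3 KD samples of M14 went through poly(A) selection and a directional kit, and was sequenced from 1 end over 50 bases. The labels do not say whether the samples were separate cultures, while the paper counts its 3 RNA-seq samples as biologically independent. The p-values measure the spread between these samples. The deposited values are expected counts per gene, which the authors obtained from STAR alignments to hg19 with RSEM and did not scale. The strand setting is not given in the sources used here. For a repeated symbol the entry with the largest total was kept. Counts were rounded, filtered with filterByExpr (15605 genes), scaled by TMM and tested in R 4.3.3 with edgeR 4.0.16 (quasi-likelihood, Benjamini-Hochberg over all tested genes, threshold 0.05). Standard errors given with edgeR log2 fold changes are the absolute log2 fold change over the square root of the test's F statistic. CPM were divided by canonical transcript length on GRCh37 (lifted GENCODE annotation; the release the authors counted on is not given in the sources used here) to compare genes. Same-numbered libraries correlated in their deviations from the condition mean (r = 0.574, 0.457 and 0.360 over 8932 genes of at least 10 CPM), so a replicate block was also fitted. Replicates 2 and 3 were less clearly told apart, with r = 0.282 for WT2 with KD3 and 0.161 for WT3 with KD2. Replicate 1 crossed with another number gave r from −0.531 to −0.360. Deviations from a condition mean cancel out within the condition. Negative crossed values therefore follow from the positive r within replicate 1 and are no further sign of pairing. Alternatives were DESeq2 1.42.0, limma-voom (limma 3.58.1), other scalings, no filter, unrounded counts and left-out libraries. The tests were checked on simulated counts.

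The members, lists and rules were chosen with earlier results of these data known. Named genes were the 4 members, STAG2, called genes and up to 4 most abundant others of each partner, regulator and relative list, the nearest tested neighbours, and the 5 genes most correlated with NPTX2. The cell type markers named were chosen after their values were seen. Poisson and binomial intervals cover counting error only, as no molecular identifiers are named.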

Additional observations from a re-analysis of the deposited data

How the results depend on the processing

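The log2 fold change of NPTX2 stayed between 9.97 and 10.82 with each library left out in turn and was 11.23 without both replicate 1 libraries, an alternative chosen after the data were seen. It was 10.00 (standard error 3.64) with limma-voom and 10.24 (standard error 0.50) with the replicate block. NPTX1 ran from −0.85 to −0.32 and NPTXR from −0.61 to −0.31 with a library left out. Neither was called under any of the 14 alternatives, where the lowest adjusted p was 0.168 for NPTX1 and 0.414 for NPTXR. The 404 genes called (273 higher, 131 lower) became 979 with DESeq2 (547 higher, 432 lower), 1103 without a low-count filter, 1486 with the replicate block and 757 without both replicate 1 libraries, and ran from 121 to 531 with 1 library left out. It was 177 without WT2, 165 without WT3, 241 without KD1, 146 without KD2 and 121 without KD3. Left-out libraries took the adjusted p from edgeR up to 0.0838 for DLG4, 0.128 for SYP, 0.280 for NEFL, 0.0944 for SLC17A7, 0.0865 for S100B and 0.168 for STAG2, all in the same direction. Library totals without TMM factors gave STAG2 an adjusted p of 0.0591. With limma-voom NEFL had an adjusted p of 0.144. With the replicate block, genes called went from 0 to 1 among synapse organizers, PTX3 partners and fibroblast markers. They went from 0 to 3 among PTX3 inducers and from 1 to 8 among melanoma markers, with PMEL and DCT among the latter. MIEF1 went from an edgeR adjusted p of 0.154 to 0.0422 with the block. The other list genes named here kept their calls, except where given beside their genes. The causes were not tested. Without a filter PTX3 had an adjusted p of 0.581 from edgeR. Its mean in KD, 0.113 CPM, was 0 without KD2. Depth limits NPTX2 in WT, PTX3 and TMEM130.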

Other observations

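The genes around the other members were read against the share of all tested genes that edgeR called, 2.59%, or 9.52% with the replicate block. The called genes named here were chosen after their values were seen. Within 1000 kb of the NPTX1 start, 30 genes were tested, of which 1 rose and 0 fell, or 2 and 4 with the replicate block. RNF213, an interferon-responsive ubiquitin ligase that lies 68.0 kb from the gene body of NPTX1, had a log2 rise of 2.09 (edgeR adjusted p = 0.00717), while ENDOV and RPTOR, the nearest tested genes on each side of NPTX1, had −0.30 and 0.46 (edgeR adjusted p = 0.718 and 0.319). Around NPTXR, 44 genes were tested, of which 1 rose and 1 fell, or 5 and 6 with the replicate block. At an unadjusted p under 0.05 from edgeR there were 9 around NPTX1 and 15 around NPTXR, and DESeq2 called 4 and 7 and limma-voom 1 and 2. With the replicate block both windows held a larger share of called genes than the 9.52% over all tested genes. Whether this is particular to the surroundings was not tested. GTPBP1, a GTP-binding protein, rose from 78.0, 106 and 84.7 CPM in WT1 to WT3 to 222, 236 and 203 CPM in KD1 to KD3 (edgeR adjusted p = 0.00838), and BAIAP2L2, an actin regulator, fell by 1.01 on the log2 scale (edgeR adjusted p = 0.0487). CBX6, a Polycomb protein and the nearest neighbour of NPTXR, had −0.13 (edgeR adjusted p = 0.893). Around PTX3, 8 genes were tested and none was called in either direction by edgeR, with 1 at an unadjusted p under 0.05, 1 called by DESeq2, 0 by limma-voom and 1 with the replicate block.

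Among the marker lists, S100B, a calcium-binding protein of melanocytes, fell by 1.35 on the log2 scale (edgeR adjusted p = 0.00949), and CD68, a lysosomal protein used as a macrophage marker, had a log2 rise of 1.59 (edgeR adjusted p = 0.00855), from 33.5 ± 7.25 CPM in WT to 101 ± 21.2 CPM in KD (SD, n = 3). Whether the level of either gene is linked to NPTX2 was not tested.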
